A study of Mus musculus with 3 samples.

Results

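The 8 genes described here encode the auxiliary subunits of voltage-gated calcium channels, namely the 4 beta subunits (Cacnb1, Cacnb2, Cacnb3, Cacnb4) and the 4 alpha2delta subunits (Cacna2d1, Cacna2d2, Cacna2d3, Cacna2d4). They were taken by gene symbol, and all 8 were found among the 47593 gene rows of the deposited files. RNA was sequenced from primary neurons of the hippocampus of wild-type (WT) mice. The neurons grew at 37 °C under 5% CO2 in Neurobasal, to which 1% GlutaMAX and 10% B27 had been added, and then received fresh medium with B27 and penicillin-streptomycin. There are 3 libraries, replicates 1 to 3 of this single group. The series design gives a treatment time of 24 h and also names neurons given apoE particles, which were not analysed here, so nothing in what follows compares treatments. Whether each library had its own culture or animals is not stated. The p-values below therefore speak only for these 3 samples, whose differences could be purely technical.

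Calcium channels open when the membrane is depolarised, and the calcium that enters drives transmitter release, gene regulation and firing patterns. Each high-voltage-activated channel is built on a pore-forming alpha1 subunit, which is joined by a cytoplasmic beta subunit and an extracellular, membrane-anchored alpha2delta subunit. Beta subunits bind the loop between the first and second domains of the pore protein, help the channel reach the cell surface and set how it opens and inactivates. Alpha2delta subunits raise the number of channels at the surface and at presynaptic terminals, and members of this family also take part in forming synapses. Low-voltage-activated (T-type) pores can work without either kind of auxiliary subunit.

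Recovered reads, the whole read numbers computed back from the deposited log2 values, summed to 18683963 to 18885652 per library. Levels are given in CPM (recovered reads per 1000000 reads of the library) and, whenever genes are set against each other, in CPM per kilobase of annotated exon. Errors are SDs over the 3 libraries. Of 12 neuron marker genes all 12 were detected, meaning at least 1 CPM in each library by the deposited values, and their summed level was 7447 to 7504 CPM. Astrocyte markers were present as well (9 of 10, summed level 1938 to 1958 CPM), as were oligodendrocyte lineage markers (6 of 10, 282 to 298 CPM). Markers of microglia (2 of 10, 7.99 to 9.47 CPM), vessels (4 of 10, 55.1 to 60.6 CPM, with Cldn5 and Kcnj8 at 0), striated muscle (3 of 12, 13.1 to 14.5 CPM, with Tnni2 at 0) and photoreceptors (0 of 10, 2.09 to 3.46 CPM) were low. The part of glial cells in the levels below was not tested. In such mixed RNA, fewer cells of a type and less RNA per cell cannot be told apart.

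The alpha2delta family is best introduced by the stretch of coding sequence that divides it. Gabapentin and pregabalin bind the proteins of Cacna2d1 and Cacna2d2 and not those of Cacna2d3 and Cacna2d4, and an arginine triplet in Cacna2d1 and Cacna2d2 is known to be needed for that binding. Shortly after it lies the metal-ion-dependent adhesion site (MIDAS) of the von Willebrand factor A domain, which alpha2delta proteins need to raise channel currents. The 93 bases below run 5′ to 3′ in the coding strand of the GENCODE M21 principal transcripts (GRCm38). The first block of capitals is the arginine triplet or the codons aligned to it, and the second is the 5 MIDAS codons.
Cacna2d1: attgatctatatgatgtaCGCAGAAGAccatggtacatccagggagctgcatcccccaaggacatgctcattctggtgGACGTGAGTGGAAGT
Cacna2d2: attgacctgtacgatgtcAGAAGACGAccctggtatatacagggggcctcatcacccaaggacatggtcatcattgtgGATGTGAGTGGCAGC
Cacna2d3: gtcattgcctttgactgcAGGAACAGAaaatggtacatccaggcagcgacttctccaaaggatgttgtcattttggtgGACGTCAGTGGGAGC
Cacna2d4: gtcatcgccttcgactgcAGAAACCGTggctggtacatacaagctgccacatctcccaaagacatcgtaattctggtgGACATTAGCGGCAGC
The stretches of Cacna2d1 and Cacna2d2 were identical at 72 of 93 bases and those of Cacna2d3 and Cacna2d4 at 69, whereas the other 4 pairings shared 54 to 61. In Cacna2d1 the triplet is codons 239 to 241 and the MIDAS codons 259 to 263. Its stretch of 93 bases lies in exons 8 to 10 (chr5:16264296-16267385, plus strand). In Cacna2d2 the triplet is codons 280 to 282, and the whole stretch lies in exons 8 to 10 (chr9:107512329-107513242, plus strand). The aligned codons are 242 to 244 in Cacna2d3, whose stretch lies in exons 7 to 8 (chr14:29346971-29347153, minus strand). In Cacna2d4 the aligned codons are 284 to 286, and the stretch lies in exons 7 to 8 (chr6:119267836-119268256, plus strand).

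Cacna2d1, whose product is the main target of gabapentin, was the leading alpha2delta gene in every library. Its deposited log2 values were 12.10, 12.16 and 12.14 in replicates 1, 2 and 3, from 4339, 4595 and 4546 recovered reads. That is a level of 18.6, 19.8 and 19.4 CPM per kilobase, 19.3 ± 0.609 on average (SD, n = 3). Replicate 1 was the lowest and the other two lay close together. The gene lies on chromosome 5 from 15934691 to 16374511 and has 12416 bases of annotated exon.

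Cacna2d3 came next within the family. It had deposited log2 values of 10.49, 10.43 and 10.48 and 1490, 1313 and 1450 reads. Per kilobase these are 9.10, 8.06 and 8.80 CPM, a mean of 8.65 ± 0.536, with replicate 2 lowest. Cacna2d3 spans 816922 bases of chromosome 14 (28904943 to 29721864), the widest of the 8 genes.

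Cacna2d2, the gene mutated in the ataxic and epileptic ducky mouse, lay just below. Its deposited log2 values were 9.90, 9.90 and 9.93, from 940, 936 and 1010 reads. Levels were 6.30, 6.30 and 6.73 CPM per kilobase (6.44 ± 0.247), replicate 3 being the highest. The Cacna2d2 range did not overlap that of Cacna2d3 in the 3 libraries. Cacna2d2 lies on chromosome 9 from 107399612 to 107529343.

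Cacna2d4, best known from the retina, where its loss impairs photoreceptor synapses, was close to the detection limit. It had 15, 17 and 17 reads and deposited log2 values of 4.03 in each library. The 49 reads in all carry an exact Poisson 95% interval of 36.3 to 64.8 reads, or 0.643 to 1.15 CPM, which covers counting error only. At 0.870 ± 0.0616 CPM it was the only member under 1 CPM, so that 7 of 8 members were detected, where 29.4% of all gene rows were. The gene lies on chromosome 6 from 119236526 to 119352407, and inside its span, on the opposite strand, lies Lrtm2, which encodes a leucine-rich repeat membrane protein. Lrtm2 had 488, 457 and 468 reads and exceeded Cacna2d4 per kilobase by 6.06 ± 0.15 log2 units. These genes share 0 exon bases in the annotation, although without strand information reads of one and the other cannot always be told apart.

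**Figure D1:**
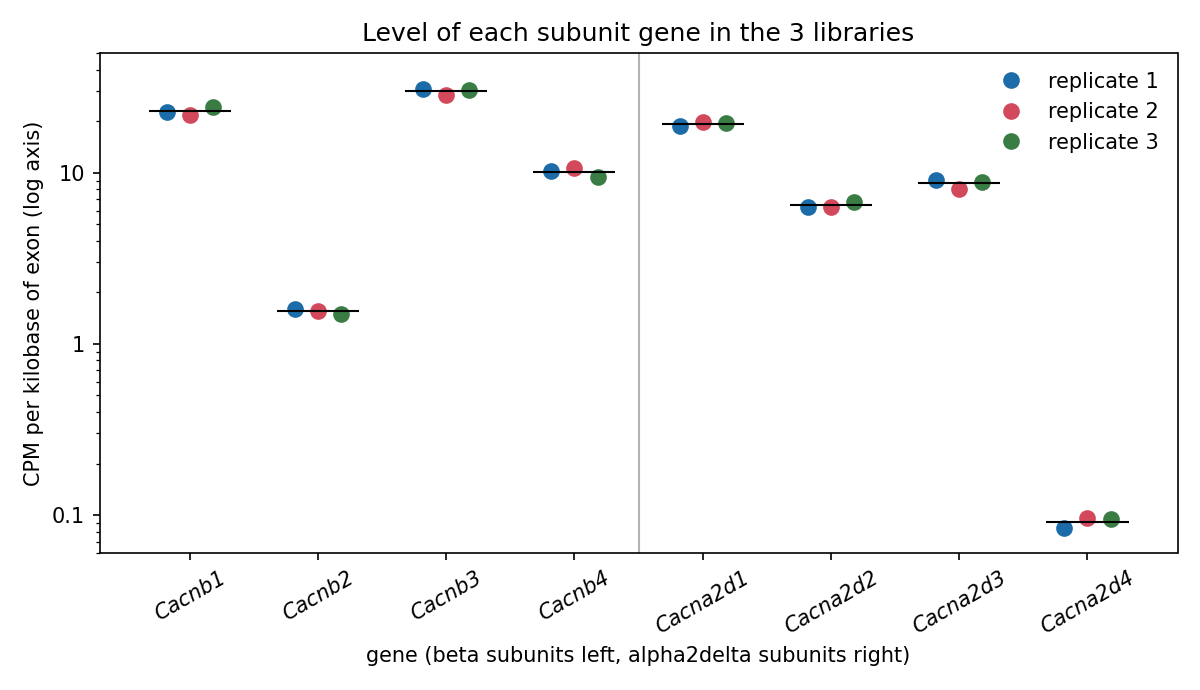
Level of each of the 8 genes in CPM per kilobase of annotated exon (log axis), with 1 point per library and a line at the mean of 3 libraries. Points of 1 gene lie close together, and the genes run from 29.98 CPM per kilobase for Cacnb3 to 0.0917 for Cacna2d4.

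In the plot of levels by library, Cacnb3 and Cacnb1 stand above Cacna2d1, and Cacnb4 and Cacnb2 below it. Cacnb3, a beta subunit abundant in brain and often found with N-type channels, was the highest of all 8 genes per kilobase. Its deposited log2 values were 11.15, 11.11 and 11.15 and its reads 2319, 2139 and 2317. Per kilobase this gave 30.8, 28.5 and 30.6 CPM (29.98 ± 1.24), with replicate 2 the lowest. The gene is compact, on chromosome 15 from 98630840 to 98644529, with 4010 exon bases.

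Cacnb1, which encodes the beta subunit of skeletal muscle and is also made in brain, followed Cacnb3. Its log2 values as deposited were 10.91, 10.90 and 10.96, from 1923, 1843 and 2060 reads. The level was 22.6, 21.8 and 24.1 CPM per kilobase (22.8 ± 1.17), highest in replicate 3. Of the 12 striated muscle markers, Jph1 (356 reads in all), Ryr1 (192) and Actn3 (101) were detected in the same libraries. The other 9 were not, among them Ckm with 4 reads, and Cacna1s, the pore subunit of skeletal muscle, had 13. Their part in the Cacnb1 level was not tested. Cacnb1 lies on chromosome 11 from 98001508 to 98023034.

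Cacnb4 is the gene disrupted in the lethargic mouse, which has ataxia and seizures. Its deposited log2 values were 10.73, 10.76 and 10.69, and its reads 1716, 1775 and 1598. Levels reached 10.2, 10.6 and 9.44 CPM per kilobase (10.1 ± 0.588), lowest in replicate 3. The gene occupies chromosome 2 from 52428320 to 52676831.

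Cacnb2, the main beta subunit of the heart, was the lowest of its family. It had deposited log2 values of 8.60, 8.59 and 8.59 and 399, 386 and 374 reads. Levels were 1.61, 1.56 and 1.497 CPM per kilobase (1.55 ± 0.0548). All 3 libraries lay far below those of the other beta genes. Cacnb2 lies on chromosome 2 from 14603088 to 14987908, and its 16 annotated transcripts cover 13228 exon bases, although the longest of them has 5030. Scaling by the union of exons therefore gives Cacnb2 a lower level than scaling by transcript length, which gave 4.09 ± 0.144 CPM per kilobase.

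By exon length the order of the 8 genes was Cacnb3, Cacnb1, Cacna2d1, Cacnb4, Cacna2d3, Cacna2d2, Cacnb2 and Cacna2d4, and no 2 neighbours had overlapping ranges over the 3 libraries. The closest neighbours were Cacnb4 over Cacna2d3, with a log2 ratio of 0.22 ± 0.16 in recovered reads, and Cacnb1 over Cacna2d1, with 0.24 ± 0.09. Both orders depend on the length used. Per kilobase of the longest transcript, Cacna2d1 (32.2 ± 1.02) lay above Cacnb1 (30.4 ± 1.56) with overlapping ranges, and Cacna2d3 (20.4 ± 1.26) lay above Cacnb4 (10.98 ± 0.641). Per kilobase of coding sequence, Cacna2d1 (72.3 ± 2.28) and Cacnb4 (58.0 ± 3.39) both lay above Cacnb1 (50.9 ± 2.60). Cacnb3 was first, Cacna2d2 sixth, Cacnb2 seventh and Cacna2d4 last under each of these lengths.

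Each gene was also set against its detected peers. Per kilobase, Cacnb3 lay above 87.9% of detected genes, Cacnb1 above 83.4% and Cacna2d1 above 79.9%. Cacnb4 lay above 64.1%, Cacna2d3 above 59.7%, Cacna2d2 above 51.5% and Cacnb2 above 20.3%. These percentages rest on the union of exons and were not computed with other lengths. The level of Cacnb2 was 1.55 CPM per kilobase by exon union and 4.09 by longest transcript. The median level, not scaled for length, was 96.8 CPM over the 4 beta genes and 63.3 CPM over the 4 alpha2delta genes. Over all detected genes it was 27.8 CPM. These medians do not allow for the unlike lengths of the genes and say nothing of levels per kilobase. The alpha2delta median also includes Cacna2d4, which was not detected.

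The next question was how each family divides among its members. Cacnb3 and Cacnb1 made up most of the beta family, with 46.5% and 35.4% of the summed level per kilobase in the deposited values. Cacnb4 supplied 15.6% and Cacnb2 2.41%. The shares of Cacnb3 in recovered reads were 47.2%, 45.7% and 46.6% in replicates 1 to 3, and those of Cacnb4 15.6%, 17.0% and 14.4%. By coding length the family was more even, with 41.0% for Cacnb3, 28.7% for Cacnb4 and 25.2% for Cacnb1. The longest Cacnb4 transcript has 8225 bases and its longest coding sequence 1557.

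Cacna2d1 made up most of the alpha2delta family, at 55.9% of the summed level. Cacna2d3 supplied 25.1%, Cacna2d2 18.7% and Cacna2d4 0.266%. In recovered reads the share of Cacna2d1 was 54.6%, 57.8% and 55.4%, highest in replicate 2, where the share of Cacna2d3 was lowest (26.7%, 23.5% and 25.1%). Together Cacna2d1 and Cacna2d2, whose coding sequences above carry the arginine triplet, held 74.6 ± 1.57% of the family's level in recovered reads. The figure was 66.6 ± 1.88% by longest transcript and 78.9 ± 1.42% by coding length.

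**Figure D2:**
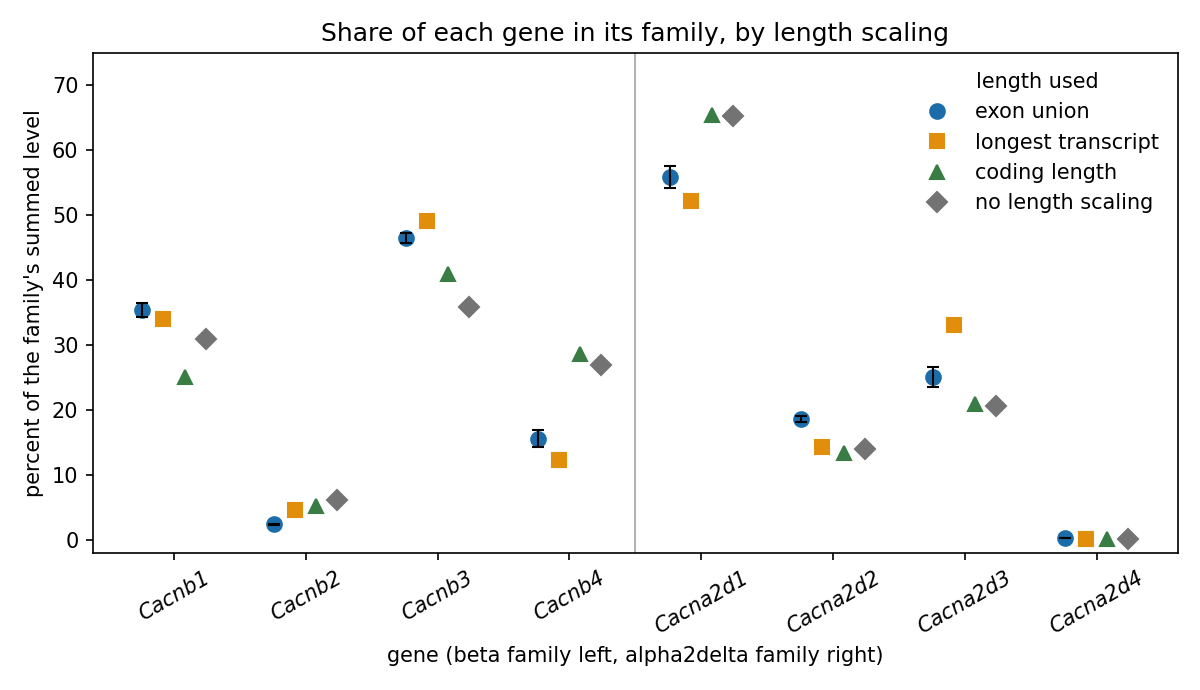
Share of each gene in the summed level of its family in percent, under 4 ways of scaling for length; symbols are means of the deposited values over 3 libraries, and bars on the exon-union symbols are the SD of the share in recovered reads. Cacnb3 and Cacna2d1 lead their families under each scaling, while Cacnb4 moves from 12.3% to 28.7%.

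Ratios between members were then tested within each library, which cancels the library's depth. All 12 pairs within the families were taken, as log2 differences of levels per kilobase with 0.5 CPM per kilobase added to each gene. Each of the 12 had the same sign in 3 of 3 libraries, on the deposited values and in recovered reads. The two-sided exact sign-flip permutation test gave p = 0.25 for every pair (Benjamini-Hochberg adjusted 0.25 over the 12), the smallest value possible with 3 libraries, so no ratio could pass 0.05.

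Within the beta family, Cacnb3 and Cacnb1 were the closest pair per kilobase of exon, whereas per coding length and without length scaling Cacnb1 and Cacnb4 were closer. Cacnb1 over Cacnb3 was −0.41, −0.38 and −0.37 in the deposited values (mean −0.39 ± 0.02), with an SD of 0.05 in recovered reads. Cacnb1 exceeded Cacnb4 by 1.14 ± 0.06 (SD 0.15 in recovered reads), but per coding length the ratio was −0.19 and without length scaling 0.19. Cacnb3 exceeded Cacnb4 by 1.53 ± 0.05 (SD 0.13 in recovered reads), and by 0.51 per coding length. Cacnb2 was the lower gene of each of its 3 pairs under every length used, by amounts that depend on that length. Cacnb2 over Cacnb4 was −2.36 ± 0.03 per kilobase of exon (SD 0.06 in recovered reads) and −1.32 by longest transcript. Cacnb2 over Cacnb3 was −3.89 ± 0.03 per kilobase of exon (SD 0.07 in recovered reads), −3.28 by longest transcript and −2.92 per coding length. Cacnb1 over Cacnb2 was 3.50 ± 0.03 per kilobase of exon (SD 0.10 in recovered reads). That ratio was 2.75 by longest transcript, 2.23 per coding length and 2.30 without length scaling.

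Within the alpha2delta family the closest pair per kilobase of exon was Cacna2d2 over Cacna2d3, at −0.40 ± 0.03 with an SD of 0.09 in recovered reads. By longest transcript this ratio was −1.17, and Cacna2d1 over Cacna2d3, at 0.64, was the closest pair. Per kilobase of exon Cacna2d1 exceeded Cacna2d3 by 1.11 ± 0.05 (SD 0.13 in recovered reads), and per coding length by 1.63. It exceeded Cacna2d2 by 1.51 ± 0.03 per kilobase of exon (SD 0.06 in recovered reads) and by 2.25 per coding length. Ratios over Cacna2d4 rest on the added 0.5 CPM per kilobase, which is more than the level of that gene. Cacna2d1 over Cacna2d4 was 5.06 ± 0.02 with it (SD 0.03 in recovered reads), 7.71 with nothing added and 2.25 with 5 CPM per kilobase added. Cacna2d3 and Cacna2d2 over Cacna2d4 were 3.95 and 3.55 with it, and 6.56 and 6.13 with nothing added.

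**Figure D3:**
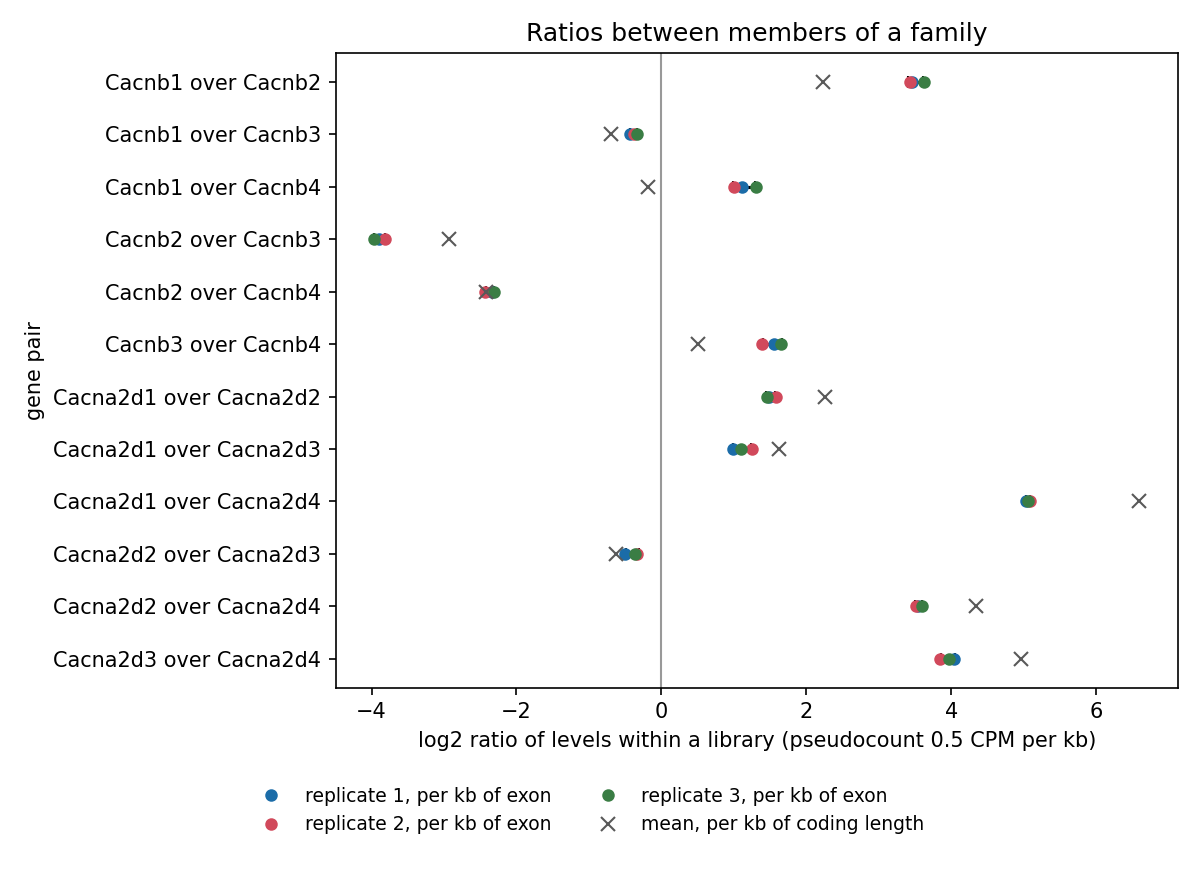
Log2 ratios of the level per kilobase between members of a family, with 1 coloured point per library in recovered reads, bars for the SD of the 3 points, and crosses for the mean of the deposited values scaled by coding length. The points of each pair lie on 1 side of 0, and the cross of Cacnb1 over Cacnb4, at −0.19, lies on the other side.

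The auxiliary families were also compared with each other and with the pores they serve. The 4 beta genes summed to 65.2, 62.5 and 65.6 CPM per kilobase in replicates 1 to 3, and the 4 alpha2delta genes to 34.1, 34.3 and 35.0. The 7 high-voltage-activated pore genes summed to 33.5, 33.5 and 34.7. Beta genes thus stood above the other 2 sums in each library, while alpha2delta and pore sums lay side by side. In the deposited values alpha2delta over beta was −0.90 ± 0.02 log2 units (SD 0.03 in recovered reads), and beta over pore was 0.93 ± 0.01 (SD 0.03), a 1.90-fold ratio. Alpha2delta over pore was 0.02 ± 0.006 (SD 0.01 in recovered reads), a 1.02-fold ratio. The exact sign-flip permutation p was 0.25 for each of the 3 (adjusted 0.25).

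**Figure D4:**
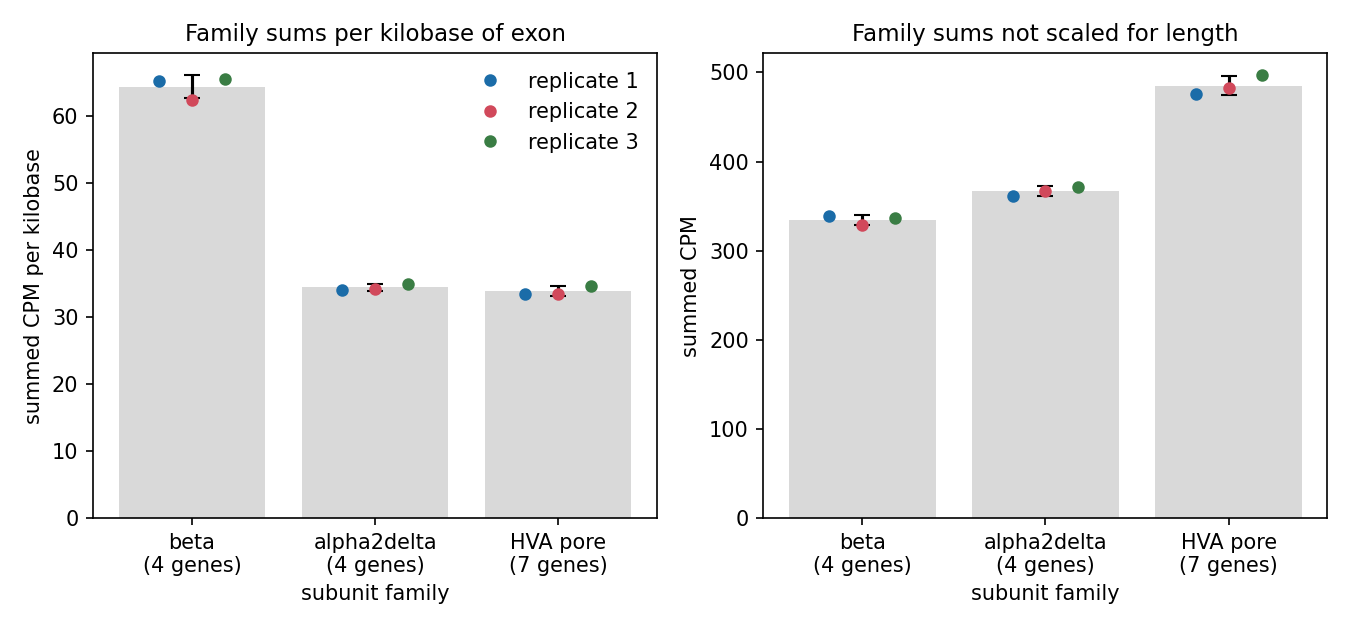
Summed levels of the beta, alpha2delta and high-voltage-activated (HVA) pore genes, per kilobase of exon on the left and without length scaling on the right; bars are means of 3 libraries, error bars SDs and points libraries. Per kilobase the beta sum is highest (64.4 ± 1.70 CPM per kilobase), and without length scaling the pore sum is highest (485 ± 10.9 CPM).

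These ratios depend on length scaling. Without it alpha2delta over beta was 0.13, beta over pore −0.54 and alpha2delta over pore −0.40, each opposite in sign to the value per kilobase. By coding length the 3 ratios were −0.87, 1.51 and 0.64. Of the 7 pore genes 5 were detected, and Cacna1b (N-type) was the highest per kilobase at 15.1 ± 0.251 CPM. Cacna1a (P/Q-type) at 5.89 ± 0.547, Cacna1e (R-type) at 5.51 ± 0.235, Cacna1c (L-type) at 4.18 ± 0.125 and Cacna1d (L-type) at 3.10 ± 0.0789 CPM per kilobase followed. That order also depends on length, since without length scaling Cacna1e (139 CPM) lay above Cacna1a (67.2 CPM). Cacna1f, a retinal pore, and Cacna1s had 8 and 13 reads. Cacna2d4 and Cacna1f, both known from photoreceptor synapses, were each under 1 CPM in every library, and 0 of 10 photoreceptor markers were detected. The T-type pores Cacna1h, Cacna1i and Cacna1g were detected at 6.69 ± 0.356, 3.92 ± 0.143 and 3.42 ± 0.148 CPM per kilobase.

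Variation of the members between libraries was tested in recovered reads, with a Pearson chi-square statistic over the 15131 genes whose mean reached 10 reads. Against counting error alone 8.62% of these genes differed between libraries at an adjusted p under 0.05, and 2 of the 8 members did. Cacna2d1 (adjusted p = 0.0410, chi-square test with Benjamini-Hochberg adjustment) was lowest in replicate 1, with a 1.07-fold range after size-factor scaling. Cacnb4 (adjusted p = 0.0465, same test) was lowest in replicate 3, with a 1.12-fold range. Both calls are slight. That of Cacna2d1 was lost when any of replicates 1, 2 or 3 was left out (adjusted p = 0.824, 0.330 and 0.0530), and that of Cacnb4 without replicate 2 or 3 (0.390 and 0.625). Cacnb1 (0.0510) and Cacna2d3 (0.0703) did not pass the chi-square test, but passed without replicate 1 (0.0124) and without replicate 3 (0.0317). Over all genes the calls fell from 1304 to 334 without replicate 2 and to 835 without replicate 3. At an unadjusted p under 0.05, 5 members differed, where 20.7% of all genes did.

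Against the spread usual for genes of like abundance, none of the 8 members stood out. In that chi-square test against a dispersion trend 0.317% of all genes were called, 0 members were called, and 0 members had an unadjusted p under 0.05 (lowest 0.0988, Cacnb4). The 48 genes called in all became 7, 19 and 28 without replicates 1, 2 and 3. The CV between libraries was 3.57% for Cacna2d1, 5.72% for Cacnb4, 5.92% for Cacna2d3 and 5.29% for Cacnb1. Cacnb3, Cacna2d2 and Cacnb2 had 3.96%, 4.15% and 3.12%, and Cacna2d4, with few reads, 7.51%. The widest ranges among the well-expressed members were 1.12-fold, for Cacnb4 and Cacna2d3.

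**Figure D5:**
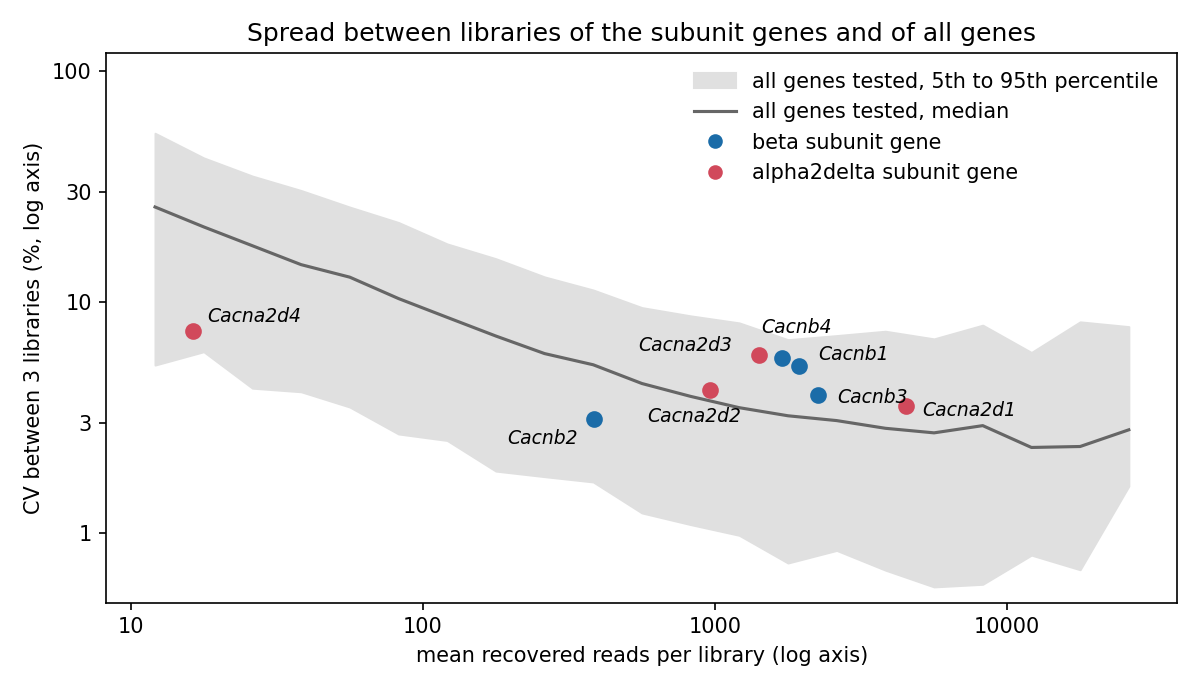
CV between the 3 libraries in percent against mean recovered reads per library (both axes log), for the 8 subunit genes (points) and all genes tested (line, median; band, 5th to 95th percentile in bins of abundance). All 8 points lie inside the band, with Cacnb2 and Cacna2d4 below the median line.

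Reads could in principle be assigned to the wrong member, so the protein-coding transcripts were compared within each family. The longest run of identical bases between such transcripts of any 2 beta genes was 24, in the coding sequence of Cacnb1 and Cacnb2:
Cacnb1 and Cacnb2: CCCTTCTTTAAGAAGACAGAGCAC
All 24 capitals are shared, and the run lies at chr11:98010368-98011357 (minus strand) and chr2:14968061-14971570 (plus strand), crossing an intron in both genes. The other beta pairs shared at most 17 to 23 bases and the alpha2delta pairs 12 to 20. No source used here gives the read length.

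Other annotated genes overlap 7 of the 8 members, Cacnb3 being the exception. Besides Lrtm2 the highest was the pseudogene Bloc1s2-ps inside Cacnb4, with 77 reads in all and 0 exon bases shared. Of the genes matched in the files, those overlapping Cacnb2, Cacna2d1, Cacna2d2 and Cacna2d3 had at most 14, 4, 1 and 2 reads in all, among them Lrtm1 inside Cacna2d3 with 2. Gm11629, which shares 80 exon bases with Cacnb1 on the opposite strand, had 11 reads, and A430018G15Rik, which shares 1433 with Cacnb4, had 1. Where exons are shared, reads of both genes could have been left out or assigned to either, and no source used here says whether the counting used strand.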

How the data were processed

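The authors' deposited files hold log2 values, 1 for each gene in each library, with no header. The submitters' processing notes name GRCm38 as the build and list DESeq2, featureCounts, HISAT2 and FastQC, with no role, version or setting. Per the labels' protocols, BGI made and sequenced the libraries by its DNBSEQ protocols. The deposited log2 values have the form of a regularized log, which shrinks differences between libraries, so their SD understates the spread. Whole reads were recovered by inverting the ridge-penalised negative binomial equation, whose 6 parameters were fitted. A whole number lay within 0.1 for 99.9% of 67797 values (20% by chance). Values refitted from these reads lay within 0.001 of the deposited ones for 100% of genes with more than 1 read. That refit reused the same 6 parameters, so it shows only that rounding changed little and is no separate test of the recovery. The 3097 genes with 1 read were assigned by their pattern, and the 21897 rows at 0 in all libraries were given no reads. For the 8 subunit genes the distance from a whole number was at most 0.0269 reads. Recovery and the variation test were also run on simulated data, but the sign-flip tests were not. The simulated log2 values were made with the fitted parameters, so they cannot test the assumed form of the deposited values.

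Depth was 18780575, 18683963 and 18885652 reads in replicates 1 to 3. A count of 0 allows a level of up to 0.16 CPM (3 reads); floors and intervals cover counting error only. Replicates differed by more than sampling noise. The chi-square per gene was 3.83 for replicates 1 and 2, 3.32 for replicates 2 and 3, and 2.22 for replicates 1 and 3. All 3 were kept.

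Exon unions, transcripts and coding lengths came from GENCODE M21 (GRCm38). Pair and sum ratios used the deposited values; CPM with an SD came from recovered reads. Size factors were medians of ratios; the dispersion trend was set in 20 abundance bins so that the median statistic met its expectation. Named genes were all members, the 3 highest genes by CPM and the genes under 1 CPM of each other list (a count where more than 5), and genes overlapping a member, of which most are given as ranges of reads. A few genes that the rule picks are not reported here. Cldn5, Kcnj8, Ckm, Tnni2, Cacna1a, Cacna1d, Rims1, Rims3, Prkaca, Mbp and Mog were named after their values were seen. Tspoap1 of the active zone list was read under its older symbol Bzrap1. The members and lists were chosen with earlier results of these data known. Python 3.11.15, NumPy 2.4.6 and SciPy 1.17.1 were used.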

Additional observations from a re-analysis of the deposited data

How the results depend on the processing

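Alternatives gave 383 values: 334 kept direction and side of the threshold or stayed within 1 SD (1.5 times for counts), 34 moved further, 4 reversed, 8 lost a call and 3 gained one. Reversed were Cacnb1 over Cacnb4 by coding length (−0.19) and, without length scaling, alpha2delta over beta (0.13), beta over pore (−0.54) and alpha2delta over pore (−0.40). These follow from the lengths used. Family shares moved with length: without scaling, by longest transcript and by coding length they were 30.9%, 34.0% and 25.2% for Cacnb1, 6.15%, 4.57% and 5.18% for Cacnb2, 35.9%, 49.1% and 41.0% for Cacnb3, and 27.004%, 12.3% and 28.7% for Cacnb4. In the same order they were 65.2%, 52.3% and 65.5% for Cacna2d1, 14.0%, 14.3% and 13.4% for Cacna2d2, 20.6%, 33.2% and 20.9% for Cacna2d3, and 0.237%, 0.244% and 0.230% for Cacna2d4. Detected microglia, vessel, muscle and photoreceptor markers numbered 6, 6, 5 and 1 at 0.5 CPM, and 0, 3, 1 and 0 at 5 CPM. Detected alpha2delta genes numbered 4 at 0.5 CPM, Cacna2d4 included, and 3 at 1 CPM. Over all gene rows these numbers were 15207 and 13986. Without a filter on low reads the variation test gave an adjusted p of 0.0776 for Cacnb4 and 0.0683 for Cacna2d1, which reached 0.0939 with size factors from total reads; for Cacnb1 it was 0.0424 among genes with 50 reads or more. With 1 library left out it ranged from 0.0124 to 0.636 for Cacnb1, 0.0314 to 0.625 for Cacnb4, 0.0530 to 0.824 for Cacna2d1 and 0.0317 to 0.855 for Cacna2d3. Genes beyond counting error numbered 1304, and 334 to 1187 with 1 library left out; beyond the dispersion trend, 48 and 7 to 28. For these the cause was not tested. The coding lengths were added after the data were seen; the planned lengths from RefSeq proteins were not run. Leaving out 1 library could not reverse a ratio with 1 sign in all 3. Levels and shares without 1 library reuse values that are already in the mean. Adding the same amount to both genes cannot change the sign of their ratio, and recovered reads were computed back from the deposited values. Part of the 334 kept values was therefore fixed in advance, and that number does not measure robustness. Depth limits Cacna2d4, and the precision of the other members is set by 3 libraries. No paired analysis was possible because there is only 1 group.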

Other observations

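Other genes known to act on these subunits were measured as lists; levels are CPM per kilobase of exon in recovered reads, with the SD over 3 libraries. Most genes named from a list are its highest in CPM without length scaling, so others of the list can be higher per kilobase. Of the 8 gamma subunit genes, related to a muscle channel subunit but in brain mostly known as AMPA receptor partners, 6 were detected, among them Cacng4 (68.6 ± 2.58), Cacng7 (94.8 ± 4.45) and Cacng3 (35.0 ± 1.46), with 24 reads in all for Cacng1 and 13 for Cacng6. RGK GTPases bind beta subunits and lower channel currents. Of 4 such genes 2 were detected, Gem at 3.20 ± 0.304 and Rem2 at 2.89 ± 0.0917, while Rrad had 23 reads and Rem1 had 1. The STAC adaptors Stac2 (2.48 ± 0.209), Stac (2.35 ± 0.0632) and Stac3 (0.461 ± 0.0549) were all 3 detected.

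Active zone proteins tether calcium channels at release sites, and RIM proteins bind beta subunits directly. All 10 genes of that list were detected, with the RIM genes Rims3 (17.3 ± 0.0814) and Rims1 (16.1 ± 0.197) highest per kilobase, followed by Erc2 (15.4 ± 0.422), Bsn (13.4 ± 0.520) and Unc13a (12.5 ± 0.276). Of 8 kinases and other beta partners 8 were detected, with the kinase genes Prkacb (66.6 ± 1.17), Camk2b (47.9 ± 1.14), Prkaca (47.5 ± 2.22) and Camk2a (25.6 ± 0.476) highest per kilobase. Among 11 proposed partners of alpha2delta proteins 9 were detected by the deposited values and 8 by recovered reads, where Thbs2 had 16 in replicate 3. They included Prnp (196 ± 2.91) and Lrp1 (22.8 ± 1.09). Of the thrombospondins, secreted astrocyte proteins that bind Cacna2d1, Thbs1 reached 4.59 ± 0.241 and Thbs3 3.46 ± 0.387. Thbs2 had 67 reads in all, Thbs4 had 2 and Comp had 1.

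Before length scaling the highest genes of the marker lists were Mapt (269.8 ± 5.23), Map2 (92.9 ± 3.09) and Stmn2 (183 ± 2.12) for neurons, and Slc1a3 (115 ± 1.11), Aldoc (68.6 ± 2.86) and Slc1a2 (17.0 ± 0.648) for astrocytes, where Gjb6 had 14 reads in all. Among oligodendrocyte lineage genes Olig1 (73.6 ± 4.46), Olig2 (26.5 ± 0.0548) and Pdgfra (2.84 ± 0.0456) were highest before length scaling. The myelin genes Mog (5.75 ± 0.419) and Mbp (2.54 ± 0.200) were detected, with 552 and 1213 reads in all. The myelin genes Mag, Mobp and Cldn11 and the precursor gene Gpr17 were not, with 2, 1, 11 and 12 reads. Microglial Cd68 reached 2.47 ± 0.485, C1qa 1.72 ± 0.521 and Csf1r 0.154 ± 0.0560, with 8 of 10 genes not detected. Vessel and mural markers included Dcn (3.97 ± 0.157), Acta2 (9.02 ± 0.466) and Pdgfrb (1.68 ± 0.254), with 6 of 10 not detected. Muscle markers included Jph1 (1.26 ± 0.145), Ryr1 (0.156 ± 0.0232) and Actn3 (0.618 ± 0.101), with 9 of 12 not detected. Of the 10 photoreceptor markers, of which 0 were detected, Arr3 had 27 reads and Rcvrn 26.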
